A study of Mus musculus with 6 samples.

Results

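The 10 genes described here encode matrix metalloproteinases (Mmp2, Mmp3, Mmp9, Mmp10, Mmp13 and Mmp14), tissue inhibitors of metalloproteinases (Timp1, Timp2 and Timp3) and the secreted serine protease HtrA1 (Htra1). They were chosen by symbol, with earlier results of these data known, and all 10 were found among the 24391 genes of the count tables. RNA sequencing compared 3 libraries labelled KMT2D KO with 3 labelled KMT2D WT, all from tumour cells of iBIP mice, a melanoma model. Both groups carry the same engineered alleles apart from Kmt2d: the Tyr-CreERT2 driver, which gives tamoxifen-activated Cre under the tyrosinase promoter of melanocytes, the Rosa26-rtta transactivator, a TetO-controlled mutant BRAF transgene, and floxed alleles, INK/ARF among them. The background was a mixture of FVB and B6. Per the labels, the animals received doxycycline, 4-OHT was applied to the ears to raise tumours there, and the cultured cells came from mice whose Kmt2d alleles were both floxed (KMT2D KO) or both intact (KMT2D WT). Ages and the number of tumours or mice are not given in the sources used here. The alignment names in the file headers carry 1 identifier for all 3 libraries of a group, so the 3 may stem from 1 line or animal, and p-values reflect nothing beyond library-to-library spread, possibly a technical one. A difference between the groups cannot be told apart from a difference between the tumours.

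Matrix metalloproteinases are zinc-dependent enzymes that cut collagens and other matrix proteins outside the cell. They are made as inactive precursors, and TIMPs block the active enzymes by binding in their catalytic cleft. Mmp2 activation links several of these genes, since TIMP2 bridges the Mmp2 precursor to Mmp14 at the cell surface, where a second, free Mmp14 molecule cuts it. In melanoma these enzymes are known for matrix breakdown at the invading edge, and TIMP3 is known as the inhibitor that stays bound to the matrix.

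Total counts were 55594979 to 79718782 in KMT2D KO and 43168605 to 59360068 in KMT2D WT. Log2-scale values (log2 of CPM + 1) correlated with r of 0.995 to 0.999 within a group and 0.915 to 0.919 between groups, across genes. CPM are counts relative to the scaled library size. Kmt2d, the targeted gene, had 72.9, 69.3 and 79.8 CPM in KMT2D KO replicates 1, 2 and 3, against 79.6, 87.6 and 100.6 CPM in KMT2D WT (log2 fold change -0.27, SE 0.08, edgeR adjusted p = 0.00749), with overlapping groups. A whole-gene count does not show whether a floxed part was lost. Most melanocyte markers went against the label of the cells, since 10 of 13 were under 1 CPM in both groups, and the pigment genes Tyr, Tyrp1 and Dct were among them, with group means up to 0.0765 CPM. Of the 13, 8 had too few counts to be tested, and of the other 5, 3 rose, 0 fell and 2 were not called. Mitf, the melanocyte master regulator, had 53.2 CPM in KMT2D KO and 15.4 CPM in KMT2D WT, and Mlana had 0.360 CPM in KMT2D KO and 0.0507 CPM in KMT2D WT. Gpnmb, which macrophages also express, had 617 CPM in KMT2D KO and 425 CPM in KMT2D WT and made up most of the list's sum. On the fibroblast list, 8 of 11 markers rose and 3 fell, and their sum was 21840 to 22858 CPM in KMT2D KO and 5810 to 6024 CPM in KMT2D WT. Most of that sum was Col1a1, Col1a2 and Col3a1. They had 3313, 9384 and 7660 CPM in KMT2D KO and 1283, 2807 and 836 CPM in KMT2D WT. Dpt, Thy1 and Lum fell, with 0.838, 4.87 and 0.527 CPM in KMT2D KO and 44.8, 14.8 and 1.30 CPM in KMT2D WT. Fibroblasts are known to express most of the 10 genes, and the part of these markers in the results was not tested. In bulk RNA, fewer cells of a type and less RNA per cell cannot be told apart.

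All 10 genes passed the low-count filter and all 10 were called by edgeR's quasi-likelihood test (adjusted p under 0.05), 6 higher and 4 lower in KMT2D KO. Over all 14579 tested genes 71.0% were called, 35.4% higher and 35.5% lower, so a call by itself says little here. With a log2 fold change beyond 1 in size, 6 of the 10 were called, where 26.8% of all tested genes were. Libraries of the groups did not overlap for 9 of the 10, where that held for 74.3% of all tested genes. The median log2 fold change of the 10 was 0.65, against 0.00 over all tested genes.

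**Figure D1:**
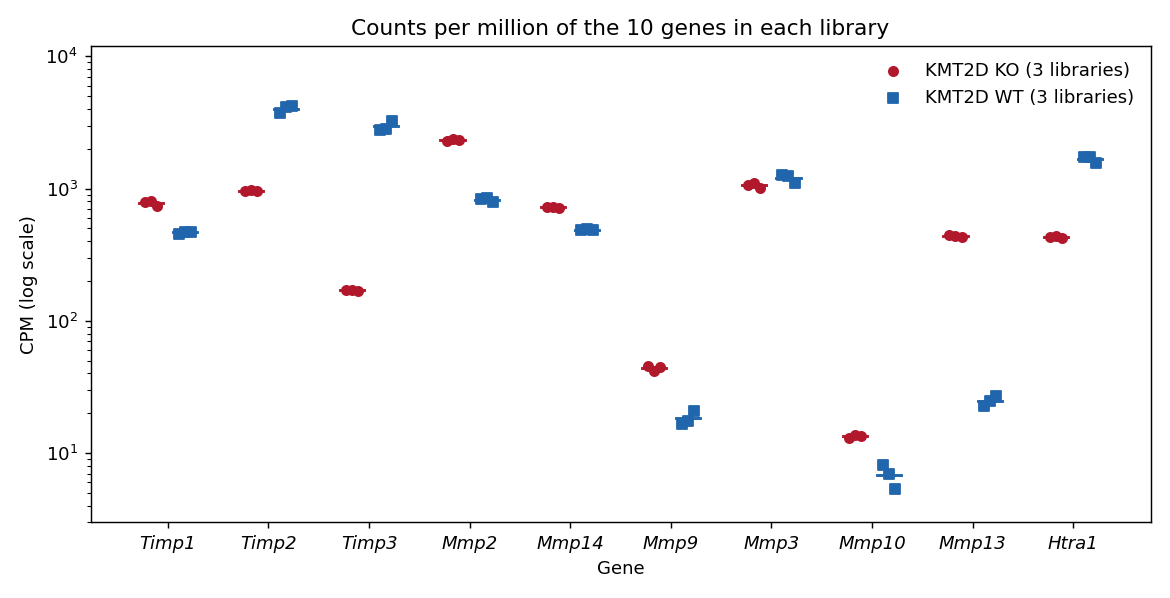
CPM (log axis) of the 10 genes in each library, KMT2D KO as red circles and KMT2D WT as blue squares, with the group mean as a line. Timp3 and Mmp13 show the widest gaps, in opposite directions, and Mmp3 is the gene whose groups overlap.

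The sequences before the transcription start are shown ahead of the values, because they differ visibly between genes. RefSeq promoter windows (build GRCm38.p6, 250 bases before to 50 after the start) were matched by symbol for 8 of the 10 genes, the exceptions being Mmp2 and Mmp9. The lines below give the 150 bases directly before the start, 5′ to 3′ on the strand of the gene. Capitals mark TGANTCA (the letters bound by AP-1, searched on both strands), TATAAA (searched on the gene's strand) and GGGCGG or its complement CCGCCC (the core of GC boxes, searched on both strands). First come 3 metalloproteinase genes of one cluster on chromosome 9, at chr9:7272364-7272513, chr9:7445672-7445821 and chr9:7502192-7502341, all on the plus strand.
Mmp13: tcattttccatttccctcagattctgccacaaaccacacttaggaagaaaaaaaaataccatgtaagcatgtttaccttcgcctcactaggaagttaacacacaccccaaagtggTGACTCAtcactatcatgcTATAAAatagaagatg
Mmp3: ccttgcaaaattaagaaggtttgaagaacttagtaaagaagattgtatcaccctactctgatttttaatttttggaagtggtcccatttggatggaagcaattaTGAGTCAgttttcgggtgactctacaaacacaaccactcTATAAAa
Mmp10: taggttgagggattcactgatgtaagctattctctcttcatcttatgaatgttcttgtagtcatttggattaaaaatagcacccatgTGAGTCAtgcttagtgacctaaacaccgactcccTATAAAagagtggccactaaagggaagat

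The next lines give the 3 genes that fell most, at chr10:86300262-86300411 (plus strand), chr11:118355412-118355561 (minus strand) and chr7:130936053-130936202 (plus strand).
Timp3: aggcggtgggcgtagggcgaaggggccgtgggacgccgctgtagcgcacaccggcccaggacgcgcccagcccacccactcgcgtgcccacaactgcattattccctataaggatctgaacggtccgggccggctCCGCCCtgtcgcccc
Timp2: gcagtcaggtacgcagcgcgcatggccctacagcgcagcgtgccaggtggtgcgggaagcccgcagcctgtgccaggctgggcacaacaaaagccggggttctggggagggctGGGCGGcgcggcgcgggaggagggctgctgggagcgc
Htra1: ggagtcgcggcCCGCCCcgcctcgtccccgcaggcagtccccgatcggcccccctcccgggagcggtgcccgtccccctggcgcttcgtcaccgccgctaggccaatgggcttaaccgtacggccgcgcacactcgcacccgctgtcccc

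Within the 300-base windows, Mmp13, Mmp3 and Mmp10 each held 1 TGANTCA match, beginning 35, 46 and 63 bases before the start, and 1 TATAAA match downstream of it. Of all 32851 windows in the table, 7.81% held TGANTCA, 8.32% held TATAAA and 0.995% held both. The same 3 windows had a GC content of 43.7%, 40.0% and 37.7% and held 1, 1 and 2 CpG dinucleotides, where the median window had 52.7% GC and 7 CpG. Timp3, Timp2 and Htra1 held neither TGANTCA nor TATAAA, had 67.0%, 68.7% and 65.0% GC and held 24, 25 and 28 CpG. Their GGGCGG matches numbered 2 (1 of them after the start), 1 and 1, and 35.7% of all windows held at least 1. Timp1 (55.0% GC, 8 CpG) and Mmp14 (56.0% GC, 10 CpG) lay between these kinds, with GGGCGG matches and neither other motif. A match of letters does not show that a factor binds there, and a missing match speaks only of these letters in these windows.

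Among the inhibitors, Timp3 and Timp2 fell while Timp1 rose. Gene coordinates from here on are those of the count tables (mm9). Timp3 (mm9 chromosome 10, 85763157 to 85812250, plus strand) had 171, 171 and 168 CPM in KMT2D KO replicates 1, 2 and 3, against 2784, 2842 and 3226 CPM in KMT2D WT. Every KMT2D KO library lay far below every KMT2D WT library. The means were 169.9 ± 1.46 and 2951 ± 240.2 CPM (SD, n = 3 each), with a log2 fold change of -4.12 (SE 0.06 and adjusted p = 3.95e-16), so Timp3 was 17.4-fold lower in KMT2D KO. By mean CPM the gene had rank 1118 among all genes in KMT2D KO and rank 20 in KMT2D WT.

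Timp2, which encodes the inhibitor that also takes part in Mmp2 activation (chromosome 11, 118162375 to 118216725, minus strand), had 962, 969 and 955 CPM in KMT2D KO and 3713, 4123 and 4242 CPM in KMT2D WT. The groups did not overlap, and the libraries of KMT2D KO differed by less than those of KMT2D WT. The means of 962 ± 7.06 and 4026 ± 277 CPM (SD, n = 3 each) gave a log2 fold change of -2.07 (SE 0.06 and adjusted p = 1.13e-13), or 4.19-fold lower. Timp2 had rank 108 by mean CPM in KMT2D KO and rank 13 in KMT2D WT.

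Timp1, a secreted inhibitor also known for growth-promoting effects (chromosome X, 20447292 to 20451863, plus strand), had 794, 806 and 744 CPM in KMT2D KO and 453, 473 and 472 CPM in KMT2D WT. The lowest KMT2D KO library was well above the highest KMT2D WT library. The log2 fold change was 0.75 (SE 0.05, adjusted p = 4.65e-09), a 1.68-fold rise. Tested against a log2 fold change of 1 it was not called (adjusted p = 1.00, where all settings gave 4.57e-51 to 1.00).

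Levels of different genes were compared per length, as RPKM (CPM per kilobase of exon). The summed level of the 3 Timp genes was 1180 ± 38.8 RPKM in KMT2D KO and 2265 ± 131 RPKM in KMT2D WT (SD, n = 3 each). Its make-up differed more than its size. Timp1 gave 74.4% ± 0.674 of the sum in KMT2D KO and 23.1% ± 0.890 in KMT2D WT. Timp2 gave 22.5% ± 0.599 of it in KMT2D KO and 49.0% ± 0.927 in KMT2D WT, and Timp3 gave 3.08% ± 0.0761 in KMT2D KO and 27.8% ± 1.09 in KMT2D WT (SD, n = 3 each). The level of Timp3 per length may be understated in both groups, because 36.3% of the 50-base words of its longest transcript in GENCODE M21 also occur in transcripts of other genes, and fragments mapping to several places are left out by default.

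**Figure D2:**
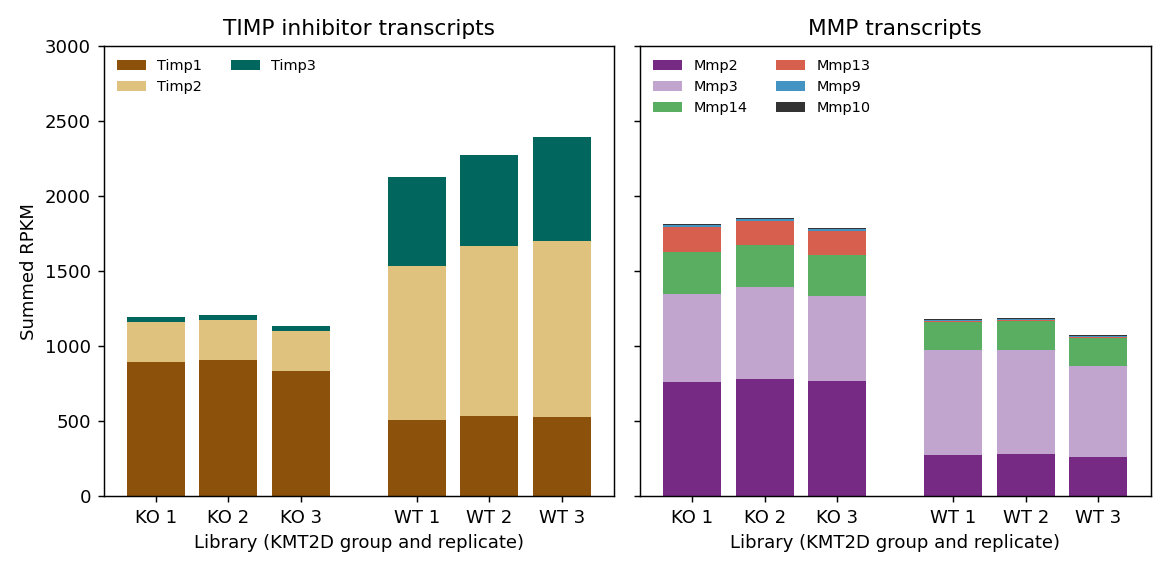
Summed RPKM of the Timp genes (left) and of the 6 Mmp genes (right) in each library, stacked by gene, KMT2D KO before KMT2D WT. Timp sums are lower and Mmp sums higher in the KMT2D KO libraries, with Timp1 and Mmp2 the largest blocks there.

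The Mmp2 and Mmp14 pair, a secreted gelatinase and the membrane enzyme that activates it, rose together. Mmp2 (chromosome 8, 95351227 to 95377319, plus strand) had 2305, 2367 and 2326 CPM in KMT2D KO, against 828, 857 and 786 CPM in KMT2D WT. Libraries of the groups were wide apart and close to each other within a group. The log2 fold change was 1.50 (SE 0.05, adjusted p = 1.11e-12), a 2.83-fold rise. Mmp14 (chromosome 14, 55050441 to 55060095, plus strand) had 729.5, 724 and 716 CPM in KMT2D KO and 486, 499 and 483 CPM in KMT2D WT. It also showed no overlap, and it varied little within each group (coefficients of variation 0.924% in KMT2D KO and 1.78% in KMT2D WT). Its log2 fold change was 0.56 (SE 0.05, adjusted p = 4.52e-08), and it was not called against a log2 fold change of 1 (adjusted p = 1.00, where all settings gave 4.73e-38 to 1.00). Timp2, the third partner in Mmp2 activation, fell, as given above.

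Mmp9, the other gelatinase, rose as well but was far less abundant than Mmp2. It had 45.4, 41.7 and 45.1 CPM in KMT2D KO and 16.7, 17.5 and 20.9 CPM in KMT2D WT, without overlap. Located on chromosome 2 (164773719 to 164781349, plus strand), it changed by 1.26 on the log2 scale (SE 0.09, adjusted p = 6.23e-09). Neutrophils and macrophages are a well-known source of Mmp9. Of 11 markers on that list 6 were under 1 CPM in both groups. Of the 9 tested, 0 rose and 7 fell, where 35.5% of all tested genes fell. The sum of the 11 was 13.7 to 15.5 CPM in KMT2D KO and 217 to 286 CPM in KMT2D WT. Most of the KMT2D WT sum was S100a8 (3.23 CPM in KMT2D KO, 209.8 CPM in KMT2D WT), while Ptprc, the pan-leukocyte marker CD45, had 0.107 and 0.516 CPM. The 2 tested markers not called were S100a9 (0.264 CPM in KMT2D KO, 0.244 CPM in KMT2D WT) and Itgam (0.136 and 0.212 CPM). The difference in the sum was thus mostly that of S100a8, and the part of these markers in the Mmp9 result was not tested.

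The stromelysins and the collagenase Mmp13 lie in the same gene cluster on chromosome 9, and they moved unequally. Mmp13, collagenase 3, which cuts fibrillar collagen (7272514 to 7283333, plus strand), had 448, 439 and 427 CPM in KMT2D KO, against 22.5, 24.6 and 27.2 CPM in KMT2D WT. This was the widest upward gap among the 10 genes. The log2 fold change was 4.15 (SE 0.07, adjusted p = 9.13e-16), or 17.7-fold higher. Mmp13 gave 8.99% ± 0.195 of the summed Mmp level in KMT2D KO and 0.812% ± 0.121 in KMT2D WT (SD, n = 3 each).

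Mmp10, stromelysin 2 (7502342 to 7510242, plus strand), was the least abundant of the 10 genes. Its values were 13.0, 13.7 and 13.5 CPM in KMT2D KO, against 8.17, 6.92 and 5.34 CPM in KMT2D WT, with no overlap but a wide spread in KMT2D WT. The log2 fold change was 0.97 (SE 0.13, adjusted p = 1.30e-05), and it was not called against a log2 fold change of 1 (adjusted p = 1.00, where all settings gave 2.99e-15 to 1.00).

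Mmp3, stromelysin 1 (7445822 to 7455974, plus strand), was abundant in both groups and differed least. It had 1059.5, 1106 and 1019 CPM in KMT2D KO and 1265, 1248 and 1094 CPM in KMT2D WT, so the highest KMT2D KO library exceeded the lowest KMT2D WT library. The log2 fold change was -0.18 (SE 0.06, adjusted p = 0.0145). The call was lost without KMT2D KO replicate 1 (-0.17, adjusted p = 0.0591) or 3 (-0.14, 0.0816) and without KMT2D WT replicate 1 (-0.14, 0.0625) or 2 (-0.15, 0.0732), and over all settings the adjusted p lay between 0.000239 and 1.00. The median over the tested genes of chromosome 9 was -0.30, and relative to it the Mmp3 value reversed, to 0.12. Mmp3 and Mmp10 share 8.39% and 8.37% of their 50-base words with other transcripts, mostly with each other, so fragments from those stretches may be missing from both.

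**Figure D3:**
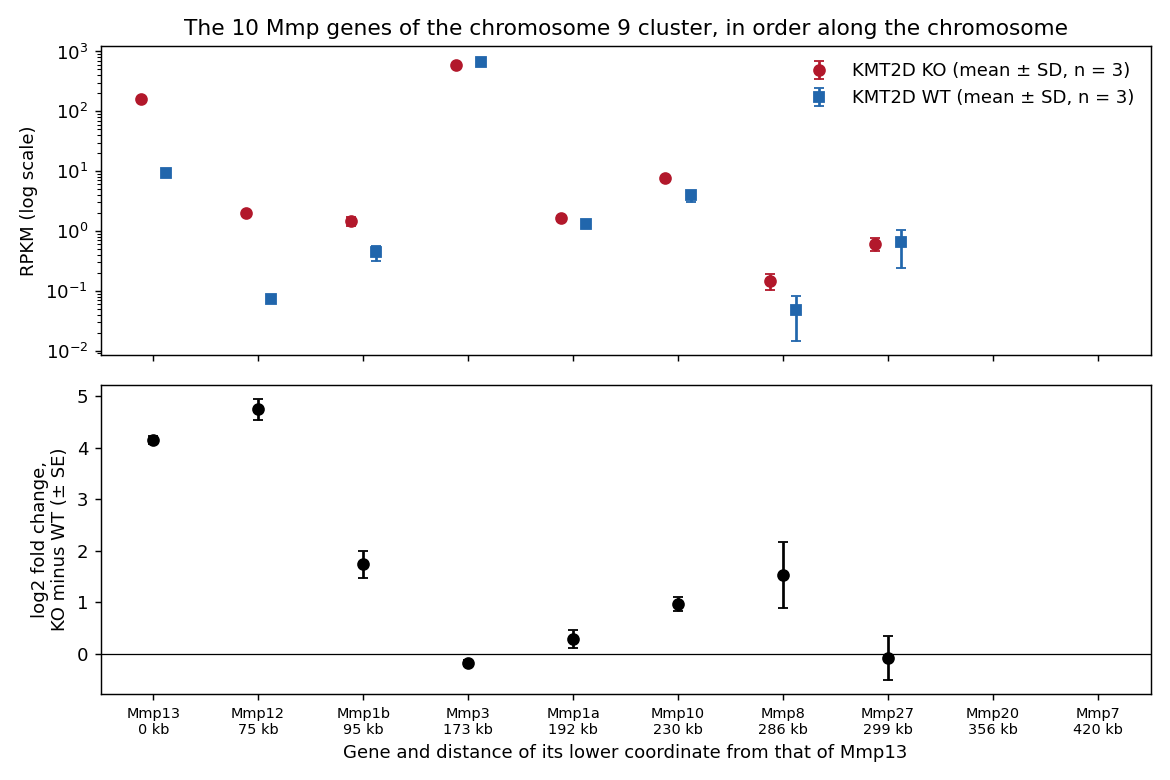
The 10 Mmp genes of the chromosome 9 cluster in chromosomal order, with distance from Mmp13 in kb below each name: RPKM (log axis, mean ± SD, n = 3) above, KMT2D KO in red and KMT2D WT in blue, and the log2 fold change ± SE below. Mmp13 and Mmp12 at one end rose most, Mmp3 in the middle is the most abundant, and Mmp20 and Mmp7, which were not tested, have no points.

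The cluster as a whole showed no common change. Ordered along the chromosome, Mmp13 (log2 fold change 4.15), Mmp12, macrophage elastase (4.74, SE 0.20), and Mmp1b (1.73, SE 0.27) rose, Mmp3 fell slightly, and further along Mmp10 rose. Mmp12 had 7.31 CPM in KMT2D KO and 0.268 CPM in KMT2D WT. Values of the remaining neighbours, chosen by position and not by the rule for named genes, were 0.29 for Mmp1a, 1.54 for Mmp8 and -0.08 for Mmp27. Mmp1a and Mmp27 were not called, and Mmp8 was called at 71 counts over the KMT2D KO libraries and 21 over the KMT2D WT libraries. Mmp7 had 0 counts in KMT2D KO and 4 in KMT2D WT, and Mmp20 had 0 counts in all libraries. Of the 10 cluster genes, 8 had at least 1 promoter window with both TGANTCA and TATAAA, while the 0.995% above is a share of windows. In Mmp12 the TATAAA match lay after the start, and Mmp12 and Mmp7 each had a further window with neither motif. Those 8 include genes that rose, a gene that fell and genes at or near 0 counts. The cluster genes are paralogs, so their windows are not independent.

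Htra1, a secreted serine protease with an amino-terminal part that resembles IGF-binding proteins (chromosome 7, 138079717 to 138129172, plus strand), fell. It had 432, 440.3 and 422 CPM in KMT2D KO, against 1720.0, 1723 and 1567 CPM in KMT2D WT. No library of one group came near the other group. Means were 431 ± 9.02 and 1669.8 ± 89.4 CPM (SD, n = 3 each), a log2 fold change of -1.95 (SE 0.05 and adjusted p = 1.26e-13), or 3.87-fold lower.

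In order of level per length, the KMT2D KO libraries ran from Timp1 (878 ± 36.7 RPKM) through Mmp2 (767 ± 10.3), Mmp3 (589.9 ± 24.2), Mmp14 (278 ± 2.57), Timp2 (266 ± 1.95), Htra1 (212 ± 4.43), Mmp13 (164 ± 3.80), Timp3 (36.3 ± 0.313) and Mmp9 (13.9 ± 0.648) to Mmp10 (7.72 ± 0.198). No neighbours in that order had overlapping libraries, although Mmp14 and Timp2 were within 1.05-fold of each other. RPKM also depends on the exon length used. For Mmp14 that was 2597 bases, where its longest GENCODE M21 transcript has 3238, so the order of Mmp14 and Timp2 is not settled. The KMT2D WT libraries ran from Timp2 (1112 ± 76.5 RPKM) through Htra1 (819 ± 43.9), Mmp3 (668 ± 52.4), Timp3 (630.4 ± 51.3), Timp1 (524 ± 12.3), Mmp2 (271 ± 11.7), Mmp14 (188 ± 3.35), Mmp13 (9.26 ± 0.865) and Mmp9 (5.79 ± 0.708) to Mmp10 (3.93 ± 0.818). There Mmp3 and Timp3 overlapped and are not ordered beyond their spread. All these are means ± SD over 3 libraries.

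The summed level of the 6 Mmp genes was 1821 ± 34.1 RPKM in KMT2D KO and 1146 ± 64.3 RPKM in KMT2D WT (SD, n = 3 each). Mmp2 gave 42.1% ± 0.553 of it in KMT2D KO and 23.6% ± 0.535 in KMT2D WT, while Mmp3 gave 32.4% ± 0.722 in KMT2D KO and 58.2% ± 1.44 in KMT2D WT (SD, n = 3 each). The ratio of the Timp sum to the Mmp sum was 0.657, 0.651 and 0.635 in KMT2D KO replicates 1, 2 and 3, against 1.80, 1.92 and 2.23 in KMT2D WT. Mmp transcripts thus outnumbered Timp transcripts per length in every KMT2D KO library, and the opposite held in every KMT2D WT library. These sums describe RNA and not protein or enzyme activity. Together the 10 genes took 0.654% to 0.685% of all counts in KMT2D KO and 1.17% to 1.24% in KMT2D WT.

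**Figure D4:**
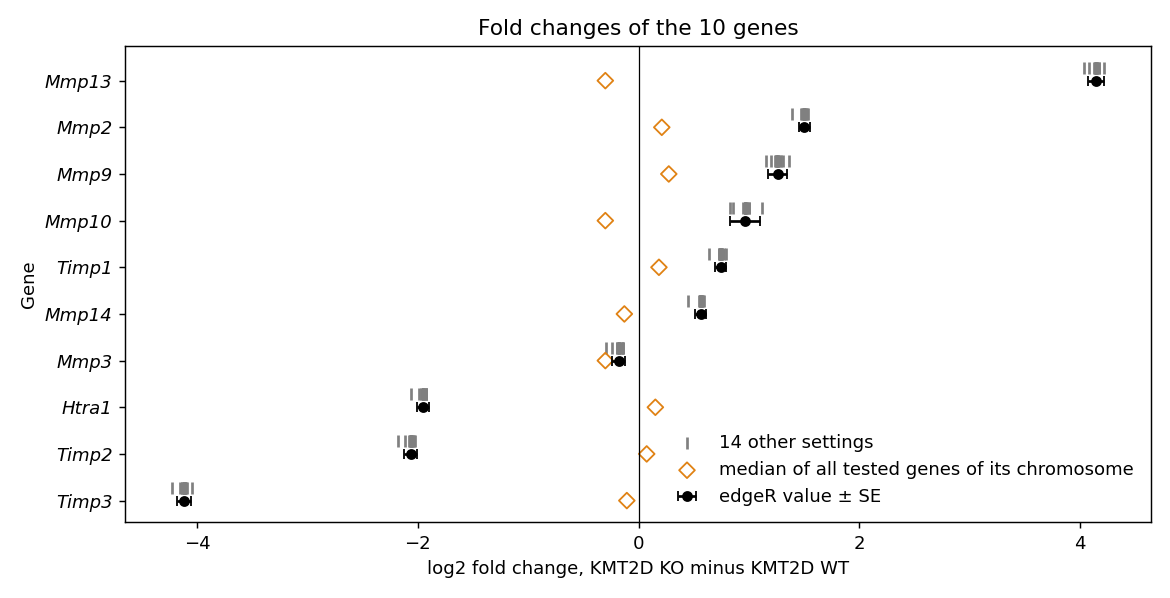
Log2 fold change (KMT2D KO minus KMT2D WT) of each gene, with the edgeR value ± SE in black, the values under 14 other settings as grey ticks, and the median of all tested genes of its chromosome as an open orange diamond. Only the Mmp3 value lies close to its chromosome's median of -0.30.

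Related genes from 7 lists were read out from the same fit. Their counts stand beside 71.0% of all tested genes called, 35.4% higher and 35.5% lower. Of the 15 other tested Mmp genes and Timp4 (18 listed), 7 rose and 3 fell, leaving 5 uncalled, and the median log2 fold change was 0.29. Besides Mmp12 and Mmp1b, the named members were Mmp19, which fell to 46.8 CPM in KMT2D KO, against 173 CPM in KMT2D WT (-1.89, SE 0.05), and the membrane-type Mmp15, at 1.48 CPM in KMT2D KO and 3.18 CPM in KMT2D WT (-1.10, SE 0.23). Chosen after its values were seen, the membrane-type Mmp16 had 100.9 CPM in KMT2D KO and 47.5 CPM in KMT2D WT (1.09, SE 0.06). Timp4, likewise chosen afterwards, had 33, 24 and 38 counts in KMT2D KO and 0 in each KMT2D WT library, at least 28.2-fold higher against a floor of 3 counts over the KMT2D WT libraries. Of the 3 other HtrA genes, 1 rose, 1 fell and 1 was not called (median 0.17). Htra4 fell, with 0.800 CPM in KMT2D KO and 2.06 CPM in KMT2D WT (-1.34, SE 0.39).

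ADAMs, membrane proteases that shed surface proteins or, in some members, act in adhesion, split evenly, since 4 of 10 rose, 4 fell and 2 were not called (median 0.03). Adam23, an adhesion member without protease activity, rose to 909 CPM in KMT2D KO, against 190.5 CPM in KMT2D WT (2.25, SE 0.05), and Adam12 rose to 4.32 CPM, against 1.95 CPM (1.17, SE 0.24). Adam8 (1.03 CPM in KMT2D KO, 25.8 CPM in KMT2D WT, -4.66, SE 0.13) and Adam33 (0.245 CPM in KMT2D KO, 2.87 CPM in KMT2D WT, -3.56, SE 0.30) fell. Among ADAMTS genes, whose products cut proteoglycans and procollagens, 9 of 13 tested rose and 4 fell (19 listed, median 1.23). Adamts15 (30.5 CPM in KMT2D KO, 2.20 CPM in KMT2D WT, 3.78, SE 0.13) and Adamts9 (41.8 CPM in KMT2D KO, 5.40 CPM in KMT2D WT, 2.95, SE 0.11) rose. Adamts7 (27.6 CPM in KMT2D KO, 82.8 CPM in KMT2D WT, -1.59, SE 0.07) and Adamts6 (1.65 CPM in KMT2D KO, 4.25 CPM in KMT2D WT, -1.35, SE 0.21) fell.

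In the plasminogen system, a second route of matrix breakdown, 2 of 7 tested genes rose, 2 fell and 3 were not called (8 listed, median -0.03). The protease inhibitor gene Serpine2 rose (411 CPM in KMT2D KO, 129 CPM in KMT2D WT, 1.68, SE 0.05). Serpinb2, an inhibitor of urokinase, fell to 5.55 CPM in KMT2D KO, against 220.5 CPM in KMT2D WT (-5.31, SE 0.08), and the urokinase receptor gene Plaur to 24.0 CPM in KMT2D KO, against 59.2 CPM in KMT2D WT (-1.31, SE 0.09). Of 13 tested genes for activators and surface partners of metalloproteinases, 7 rose, 5 fell and 1 was not called (14 listed, median 0.18). They included Thbs2, a matricellular protein that aids clearance of Mmp2 (1.41, SE 0.05), the caveolin gene Cav1 (1.02, SE 0.05), the proprotein convertase gene Pcsk5 (-3.40, SE 0.33) and Lrp1, the endocytic receptor that clears metalloproteinases and TIMPs (1368 CPM in KMT2D KO, 2215 CPM in KMT2D WT, -0.69, SE 0.06).

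AP-1 factors, dimers of Fos and Jun family proteins, were listed because of the motif in the Mmp13, Mmp3 and Mmp10 windows. The Mmp14 window held no such match, and Mmp2 and Mmp9 had no window. Like the other lists, the AP-1 list was fixed with earlier results of these data known. Of 7 tested, 6 rose, 0 fell and 1 was not called (median 2.54), where 35.4% of all tested genes rose. The one not called, Fosl1, is named after its values were seen (-0.17, SE 0.09). Fosb had 915 CPM in KMT2D KO and 14.3 CPM in KMT2D WT (5.99, SE 0.07), and Fos had 1282 CPM in KMT2D KO and 36.5 CPM in KMT2D WT (5.13, SE 0.08). Whether these factors act on any of the 10 genes was not tested.

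**Figure D5:**
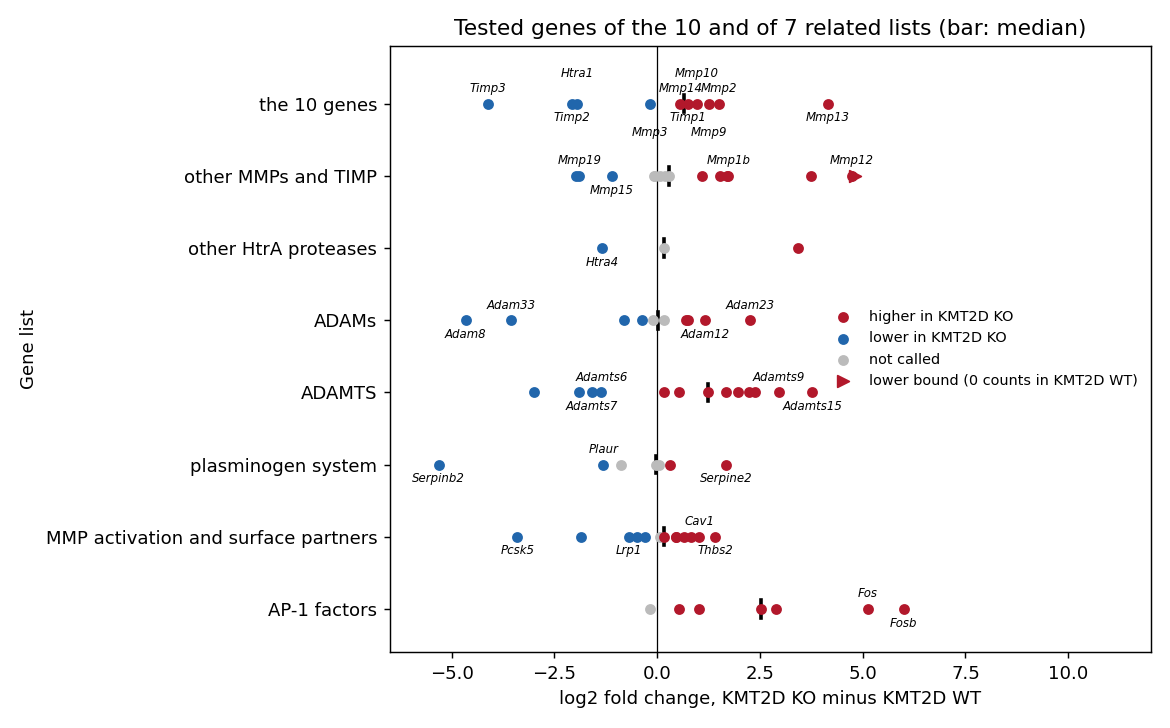
Log2 fold change (KMT2D KO minus KMT2D WT) of each tested gene of the 10 and of the 7 related lists, red where higher, blue where lower and grey where not called, with the list's median as a bar. The triangle marks the lower bound for Timp4, and the AP-1 factors have the highest median, 2.54.

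For each of the 10 genes, the gene with the most similar profile was sought among 8822 others with at least 10 CPM on average, by the distance between centred log2 CPM over the 6 libraries. The nearest to Timp3 was Odc1, which encodes ornithine decarboxylase (distance 0.19, log2 fold change -4.05). Nearest to Timp2 was the tetraspanin gene Cd151 (0.09, -2.11), and nearest to Htra1 was Pcolce (0.04, -1.95), whose product enhances procollagen processing. Mmp13 was nearest to Zfp503 (0.17, 4.16), Mmp10 to B4galt4 (0.13, 0.90) and Mmp9 to Meis2 (0.11, 1.27). The remaining nearest genes were Cnn3 for Timp1 (0.04), Steap4 for Mmp2 (0.05), Esd for Mmp3 (0.04) and Smim19 for Mmp14 (0.05). With 2 groups and most genes called, such profiles mainly reflect a similar fold change.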

How the data were processed

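The authors deposited raw fragment counts for each gene and library, produced by featureCounts 1.5.2 from exons in a mm9 gene annotation, per the file headers. No strand option and no option for multiply mapped or multiply assigned fragments was recorded, so both strands were counted and such fragments are left out by default. The submitters' processing notes list STAR and HTSeq without roles. The labels' extraction protocol names cerebellar tissue, the other labels tumour cells, and of 8 cerebellum markers 7 were under 1 CPM in both groups. No exonic base of the 10 genes was shared with another gene in the files, although Timp1 and Timp3 lie inside Syn1 and Syn3, on the opposite strand.

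Counts were tested with edgeR 4.0.16 in R 4.3.3 (quasi-likelihood F test, TMM scaling, default low-count filter by group, group as the only term), with Benjamini-Hochberg adjustment over all 14579 genes tested. SE is the log2 fold change divided by the square root of F. CPM used library sizes times TMM factors (0.957 to 0.967 in KMT2D KO, 1.037 to 1.044 in KMT2D WT), and RPKM the exon length in the files. Floors cover counting error only. On data simulated for this comparison, 79% of changes of 1 log2 unit and 93% of changes of 2 were recovered over 14407 genes. The simulation was set to 200 changed genes, far fewer than the 10345 called in the data, so these shares may not carry over. Libraries of a group differed beyond sampling noise (chi-square per degree of freedom 11.6 to 26.1).

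The 10 genes and all lists were chosen with earlier results of these data known. From each list the text names up to 2 called genes per direction with the largest change, at a mean of at least 1 CPM. One gene under this rule is not reported here. Marker lists not printed elsewhere gave summed CPM in KMT2D KO and KMT2D WT of 658 to 692 and 397 to 492 (melanocyte), 15.5 to 16.7 and 6.50 to 8.58 (keratinocyte), 0.508 to 1.03 and 1.12 to 2.29 (endothelial), 14.0 to 15.1 and 6.12 to 7.09 (Schwann), 58.8 to 61.4 and 32.1 to 42.9 (chondrocyte and osteoblast) and 2.16 to 2.74 and 0.648 to 1.06 (cerebellum). Their part in the results was not tested. Alternatives were RLE factors, unscaled library sizes, DESeq2 1.42.0, limma voom 3.58.1, other filters, a replicate block, a test against a log2 fold change of 1, chromosome centring, and leaving out each library.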

Additional observations from a re-analysis of the deposited data

How the results depend on the processing

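Of 150 values of the 10 genes under 15 alternatives, 132 kept direction and call, 8 lost the call, 9 moved on chromosome centring, and 1 reversed: Mmp3, at 0.12 once centred on chromosome 9. Apart from Mmp3, calls were lost only against a log2 fold change of 1. That test called 2823 genes (1479 higher, 1344 lower), 6 of the 10 genes (3 higher) and 30 related genes (19 higher, 11 lower), where the main test called 55 related genes. Leaving out a library gave 9542 to 10798 called genes and 9 or 10 of the 10 genes. Unscaled library sizes shifted the median over all tested genes to -0.11 (log2) and called 4415 higher and 5987 lower. Same-numbered libraries did not deviate together (r = 0.0149, 0.00949 and 0.00846), and with the replicate block 10368 genes were called and all 10 genes kept their call.

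Timp sums were 2654 TPM in KMT2D KO and 5875 TPM in KMT2D WT, and 1135 RPKM in KMT2D KO on unscaled library sizes. Mmp sums were 4096 TPM in KMT2D KO and 2969 TPM in KMT2D WT, and 1752 RPKM in KMT2D KO on unscaled library sizes. Unscaled RPKM sums are given for KMT2D KO only. As shares of all counts, unscaled, the Timp genes took 0.179% to 0.188% in KMT2D KO and 0.721% to 0.823% in KMT2D WT. The Mmp genes took 0.435% to 0.454% in KMT2D KO and 0.251% to 0.277% in KMT2D WT. The scales differ, so these levels differ by construction. Depth limits low genes such as Mmp7, Mmp8 and Mmp20.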

Other observations

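The 10 genes varied more between KMT2D WT libraries than between KMT2D KO libraries, except Timp1. Coefficients of variation of CPM were 0.734% to 4.67% in KMT2D KO and 1.78% to 20.8% in KMT2D WT, with Mmp10 the highest. Over 9044 genes with at least 10 CPM the medians were 3.77% in KMT2D KO and 6.55% in KMT2D WT. KMT2D WT replicate 3 had the highest Timp2, Timp3, Mmp9, Mmp13 and Kmt2d and the lowest Mmp2, Mmp3, Mmp10, Mmp14 and Htra1 among the KMT2D WT libraries, and the highest ratio of Timp to Mmp sums, 2.23.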
